A study of Mus musculus with 35 samples.

Results

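RNA from bulk medial prefrontal cortex (mPFC) of wild-type (WT) mice given antibiotics together with acetate was compared with RNA from WT mice given water. The comparison takes in 10 of the 35 libraries of the series: the 4 WT libraries labelled abx_and_acetate and the 6 WT libraries labelled control, matched to the deposited columns by sample title, and all 14870 genes of the table. The other 25 libraries are WT mice given antibiotics alone (abx, 4 libraries) or acetate alone (5 libraries), and mice deficient in Shank3 (KO) given antibiotics with acetate (4 libraries), antibiotics (3 libraries), acetate (5 libraries) or water (4 libraries). Group WT_abx_and_acetate holds 3 males and 1 female, and group WT_control holds 3 males and 3 females. The labels give a genotype, a treatment, a sex and an RNA integrity number for each library, and no strain, age, dose or duration. Nothing in them ties a library to its own animal, and the p-values below therefore speak of the spread among libraries, which may be technical. The number after a group, as in WT_control 1, only names a library.

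Broad-spectrum antibiotics given by mouth deplete the bacteria of the gut. Those bacteria ferment fibre into short-chain fatty acids, of which acetate is the most abundant, and acetate can reach the brain through the blood. Inside cells the enzymes Acss1 (in mitochondria) and Acss2 (in cytosol and nucleus) join acetate to coenzyme A, and the acetyl-CoA that results feeds the citric acid cycle, lipid synthesis and the acetylation of histones. The mPFC is a cortical area with a part in social behaviour, and Shank3 is a scaffold protein of excitatory synapses.

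Depth came to 12.8 to 25.0 M reads (M for mega) in WT_abx_and_acetate, with a median of 21.3 M, and 20.1 to 28.0 M reads in WT_control, with a median of 24.2 M. The shallowest library was WT_abx_and_acetate 4, which is also the one female of its group. RNA integrity averaged 9.15 ± 0.13 in WT_abx_and_acetate (SD, n = 4) and 9.05 ± 0.18 in WT_control (SD, n = 6). Shank3 stood at 8.22 to 8.62 log2 CPM (counts scaled to library size) in WT_abx_and_acetate and 8.24 to 8.85 in WT_control. The mean of 4 Y-linked genes was 4.77 to 5.17 log2 CPM in the 6 labelled males of both groups and 0.13 to 0.73 in the 4 labelled females. These genes cannot check a treatment label, but none of these 10 libraries went against its label of genotype or sex. In the remaining WT groups 5 libraries did: WT_abx 4, WT_acetate 2 and WT_acetate 5 held Acr, a neighbour of Shank3 that is high in the KO libraries, at 3.62 to 4.56 log2 CPM, and WT_abx 3, WT_acetate 2, WT_acetate 4 and WT_acetate 5 had Y-linked levels of the other sex or between the sexes. These libraries enter the fit through the shared estimate of spread and through the term for labelled sex. Without them 75 genes passed in place of 108, and the folds of the 108 were 0.96 to 1.04 times their size over all libraries. Markers of cortical excitatory neurons were high in both groups, with Slc17a7, the vesicular glutamate transporter, at 10.48 to 11.01 log2 CPM in WT_abx_and_acetate and 10.60 to 10.91 in WT_control.

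Antibiotics with acetate went with small shifts in many genes. At an adjusted p below 0.05 in limma, 108 of 14870 genes (0.726%) differed, of which 51 (0.343%) were higher and 57 (0.383%) lower in WT_abx_and_acetate. The genes that rose did so by a median log2 fold of 0.36 (range 0.21 to 0.76) and those that fell by a median of -0.48 (range -1.89 to -0.24). Only 6 of the 108 changed by a log2 fold of 1 or more, and 66 by less than 0.5. Over all genes the median log2 fold was 0.00, 50.1% of the folds were positive, and 2136 genes (14.4%) had an unadjusted p below 0.05, 1047 of them higher (7.04%) and 1089 lower (7.32%). The 2 groups did not overlap in 89 of the 108 genes, against 703 of all genes (4.73%). The 108 were chosen by a test on these same values, which favours genes without overlap.

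**Figure D1:**
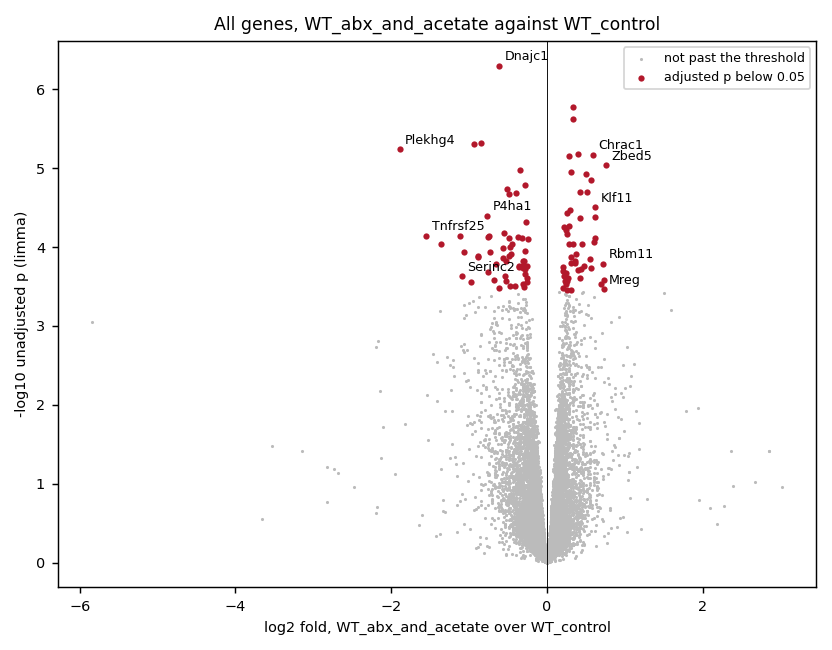
Each point is a gene, with its log2 fold (WT_abx_and_acetate over WT_control) on the x axis and the -log10 of its unadjusted limma p on the y axis. Red points are the 108 genes past the adjusted threshold of 0.05, most of which lie within a log2 fold of 1 on either side of 0.

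How many genes passed rested on single libraries, while the called genes kept the direction of their folds. Without WT_abx_and_acetate 3 no gene passed (smallest adjusted p 0.0563 in limma, 1724 genes at an unadjusted p below 0.05), and without WT_abx_and_acetate 1 only Dnajc1, Chrac1, Zranb1 and Klhl23 did. Leaving out WT_control 1, 2, 4, 5 or 6 in turn left 52, 63, 23, 42 or 50 genes, and leaving out WT_control 3 gave 203. Without WT_abx_and_acetate 4 there were 144, and without WT_abx_and_acetate 2 there were 77. All 108 genes had the same sign and an unadjusted p below 0.05 in each of these 10 fits, and the median size of their folds stayed between 0.97 and 1.06 times the size over all libraries. These genes were chosen in the fit of all libraries, from which each of the 10 fits drops only 1. Their kept sign and low p therefore follow largely from that choice. Over single genes and fits that ratio ran from 0.70, without WT_abx_and_acetate 4, to 1.38.

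The gene with the smallest p was Dnajc1, named here after its values were seen, a DnaJ co-chaperone of the endoplasmic reticulum (ER) membrane encoded on chromosome 2 (18195654 to 18392830, minus strand, GENCODE vM21 on GRCm38). It stood at 4.44, 4.37, 4.18 and 4.63 log2 CPM in the 4 WT_abx_and_acetate libraries, against 4.80 to 5.19 (median 5.10) in WT_control. Every WT_abx_and_acetate library lay below every WT_control library, and the log2 fold was -0.61 ± 0.10 (SE, adjusted p = 0.00742 in limma).

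Chrac1, Tipin, Ccne2 and Klf11 were among the 12 genes that rose most. Chrac1, a histone-fold subunit of a chromatin accessibility complex, stood at 3.11, 3.33, 3.32 and 3.61 log2 CPM in WT_abx_and_acetate, against 2.44 to 2.91 (median 2.79) in WT_control. The groups did not overlap and the log2 fold was 0.59 ± 0.11 (SE, adjusted p = 0.0116). Tipin, which with Timeless protects replication forks (chromosome 9, 64281581 to 64305424), stood at 3.35, 3.20, 3.39 and 3.03 log2 CPM in WT_abx_and_acetate and 2.43 to 2.92 (median 2.67) in WT_control. It too was higher in each of the 4 libraries than in any control, by 0.57 ± 0.11 on the log2 scale (adjusted p = 0.0148). Ccne2, cyclin E2 of the G1 to S transition, rose by 0.62 ± 0.13 (adjusted p = 0.0242), with 2.76 to 3.30 log2 CPM in WT_abx_and_acetate and 2.32 to 2.50 in WT_control. Klf11, a Krüppel-like transcription factor, rose by 0.62 ± 0.13 (adjusted p = 0.022).

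The largest rise was that of Zbed5, a zinc-finger gene, at 3.26, 3.03, 3.22 and 2.72 log2 CPM in WT_abx_and_acetate, against 2.01 to 2.42 (median 2.33) in WT_control. Its log2 fold was 0.76 ± 0.14 (adjusted p = 0.0135) with no overlap, and the female WT_abx_and_acetate 4 was the lowest of its group. Rbm11, an RNA-binding splicing regulator, followed the same order, with 3.10, 3.04, 3.09 and 2.70 log2 CPM in WT_abx_and_acetate and 2.02 to 2.50 (median 2.24) in WT_control, a log2 fold of 0.72 ± 0.17. Mreg, melanoregulin, which takes part in organelle transport, rose by 0.73 ± 0.18 and Zc3h6, a CCCH zinc-finger gene, by 0.62 ± 0.13; in both the lowest WT_abx_and_acetate library was close to the highest control. Klhdc9, a kelch-domain gene, rose by 0.74 ± 0.18 with overlap, since WT_abx_and_acetate 4 at 2.34 log2 CPM lay below the highest control at 2.41. Gm9996, a low transcript with no assigned coding product, rose by 0.70 ± 0.17. Cln6, an ER membrane gene mutated in neuronal ceroid lipofuscinosis, rose by 0.57 ± 0.13 and overlapped in 1 library on each side, at 3.02 log2 CPM in WT_abx_and_acetate 2 against 3.06 in the highest control. Adjusted p for these 6 genes other than Zbed5 lay between 0.0288 and 0.048 in limma.

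Htr1a and Kcnj3 both rose. Htr1a encodes the serotonin 1A receptor, which couples to inhibitory G proteins (chromosome 13, 105443639 to 105448122), and stood at 4.66, 4.15, 4.54 and 4.59 log2 CPM in WT_abx_and_acetate, against 3.66 to 4.20 (median 3.85) in WT_control. Only WT_abx_and_acetate 2 fell within the control range, and the log2 fold was 0.61 ± 0.14 (adjusted p = 0.0289). Kcnj3, the GIRK1 subunit of the potassium channel that such receptors open, stood at 7.43, 7.31, 7.32 and 7.54 log2 CPM in WT_abx_and_acetate and 6.87 to 7.31 (median 7.02) in WT_control, a log2 fold of 0.36 ± 0.08 (adjusted p = 0.0353). Each was the single member of its list to pass, where 0.343% of all genes passed as higher. Htr1a was among 21 serotonin and dopamine receptors, of which 15 had positive folds (median 0.20). Kcnj3 was among 47 potassium and sodium channels, of which 26 did (median 0.03). Drd5, the dopamine D5 receptor, had a log2 fold of 0.99 ± 0.41 and Htr5b one of -0.89 ± 0.40, and neither passed (adjusted p = 0.251 and 0.3). Kcnma1, a calcium-activated potassium channel, had 0.22 ± 0.09 with no overlap, and Kcnd2 had 0.16 ± 0.07; adjusted p was 0.217 and 0.273. The median of the channel list turned to -0.02 in the male libraries alone, to 0.00 without WT_control 6 and to -0.01 without WT_abx_and_acetate 4. That of the receptor list was 0.07 in the male and -0.10 in the female libraries alone, and it was 0.08 without WT_abx_and_acetate 1, 0.09 without WT_abx_and_acetate 4 and 0.13 without WT_control 2 or 4.

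**Figure D2:**
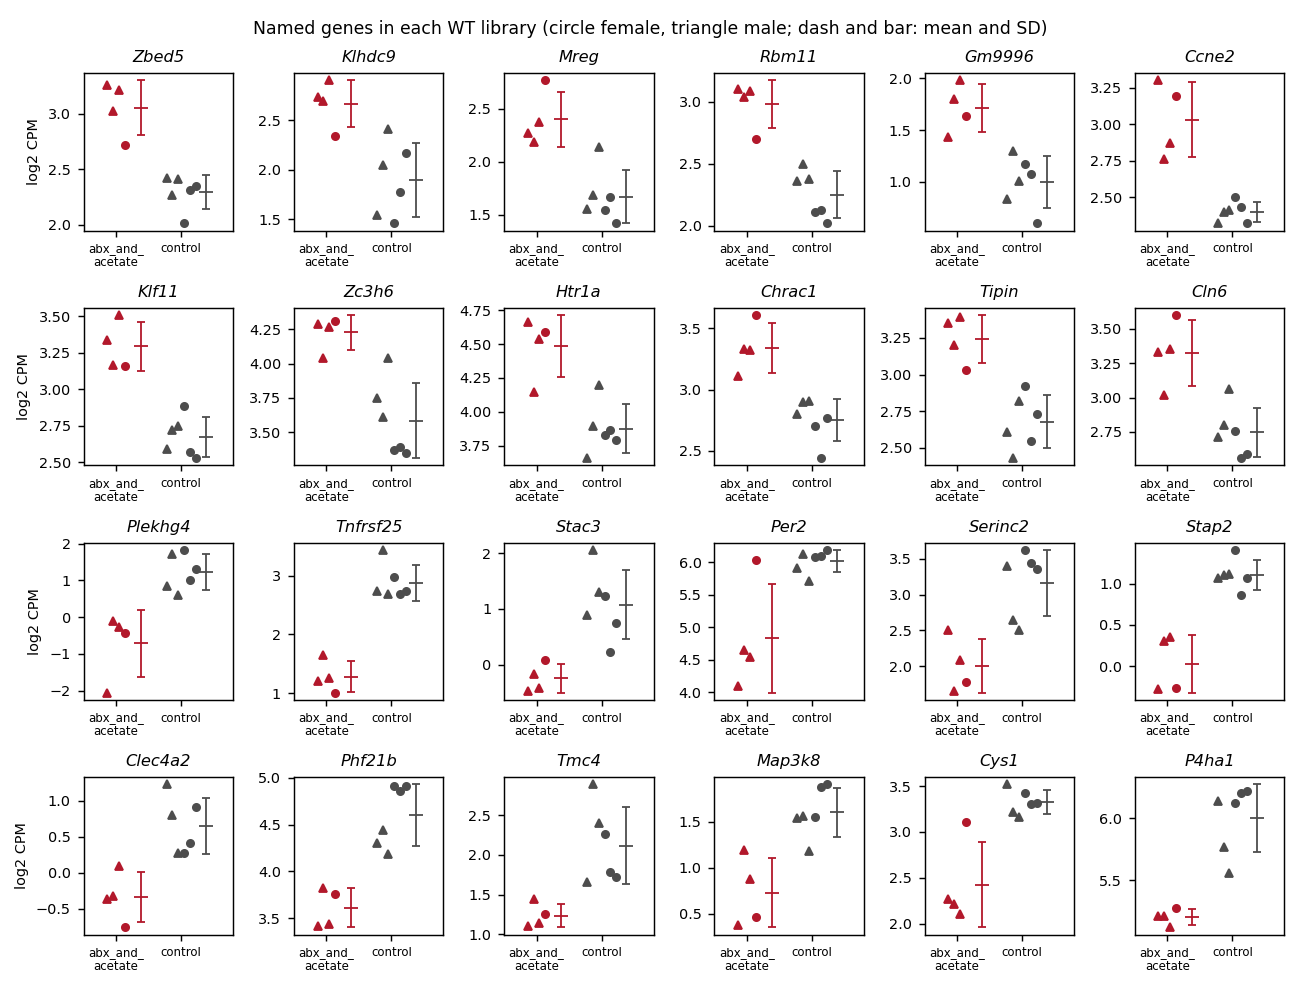
Log2 CPM of the 12 genes that rose most (upper 2 rows) and the 12 that fell most (lower 2 rows) in each WT_abx_and_acetate library (left, red) and each WT_control library (right, grey), with circles for females, triangles for males, and the mean and SD beside them. The red and grey points separate in most panels, and Per2 and Cys1 show the single WT_abx_and_acetate female near the controls.

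Among the 12 genes that fell most, 5 did so by a log2 fold of more than 1 without overlap: Plekhg4, Tnfrsf25, Stac3, Serinc2 and Stap2. Plekhg4, a guanine nucleotide exchange factor, had the largest change of all called genes, at -2.06, -0.10, -0.27 and -0.42 log2 CPM in WT_abx_and_acetate, against 0.61 to 1.84 (median 1.16) in WT_control. The groups did not overlap, WT_abx_and_acetate 1 lay far below the rest, and the log2 fold was -1.89 ± 0.34 (adjusted p = 0.0116). Plekhg4 is a low gene, where the median level over all genes was 4.46 log2 CPM. Without WT_abx_and_acetate 1 its log2 fold was -1.46 (adjusted p = 0.0789 in limma). Tnfrsf25, the death receptor 3 of the tumour necrosis factor receptor family, stood at 1.21, 1.65, 1.26 and 1.01 log2 CPM in WT_abx_and_acetate and 2.68 to 3.44 (median 2.73) in WT_control. That is a log2 fold of -1.55 ± 0.34 (adjusted p = 0.0288) with a gap of over 1 between the groups. Stac3, known from excitation-contraction coupling in muscle, fell by 1.36 on the log2 scale and Stap2, a signalling adaptor, by 1.07, both without overlap. Serinc2, a serine incorporator, stood at 2.50, 1.65, 2.09 and 1.78 log2 CPM in WT_abx_and_acetate and 2.51 to 3.63 (median 3.38) in WT_control, so that the groups only just failed to overlap (log2 fold -1.09 ± 0.26).

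P4ha1, the catalytic subunit of the collagen prolyl 4-hydroxylase of the ER (chromosome 10, 59323296 to 59373304), was even across the treated libraries, at 5.21, 5.21, 5.12 and 5.28 log2 CPM in WT_abx_and_acetate, against 5.56 to 6.22 (median 6.13) in WT_control. The spread lay in the controls, and the log2 fold was -0.77 ± 0.16 (adjusted p = 0.0242). Phf21b, a PHD-finger gene, stood at 3.42, 3.82, 3.44 and 3.76 log2 CPM in WT_abx_and_acetate and 4.19 to 4.91 (median 4.65) in WT_control, a log2 fold of -0.93 ± 0.17. Cys1, which encodes cystin of primary cilia, fell by 0.85 on the log2 scale, with 2.27, 2.21 and 2.10 log2 CPM in the male WT_abx_and_acetate libraries, 3.11 in the female, and 3.16 to 3.52 in WT_control. Clec4a2, a C-type lectin receptor of myeloid cells, fell by 0.97, Tmc4, a transmembrane channel-like gene, by 0.89 and Map3k8, a kinase of inflammatory signalling, by 0.88. Of these 3 only Map3k8 overlapped, where WT_abx_and_acetate 2 at 1.19 log2 CPM met the lowest control at 1.18.

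Further genes that passed are named here after their values were seen. Irs2, an insulin receptor substrate, stood at 5.97, 5.96, 5.95 and 6.10 log2 CPM in WT_abx_and_acetate, against 6.15 to 7.28 (median 6.90) in WT_control, a log2 fold of -0.76 ± 0.18 (adjusted p = 0.0377). Ptpn1, a tyrosine phosphatase that acts on the insulin receptor, fell by 0.48 on the log2 scale, Stat3, a transcription factor downstream of cytokine receptors, by 0.28, Smad3, a mediator of TGF-beta signals, by 0.47 and Pfkfb3, a regulator of glycolysis, by 0.65. The SE of these 4 folds was 0.10, 0.06, 0.12 and 0.15, and Smad3 alone of them overlapped between groups. Eif5, an initiation factor of translation, rose by 0.28 ± 0.05, Eif4b by 0.25 ± 0.06 and Denr, which acts in reinitiation, by 0.23 ± 0.06, none with overlap. Rbm12b1 and Rbm12b2 had log2 folds of -0.48 ± 0.11 and -0.37 ± 0.08, but they are near-identical copies whose reads the counting may have split, so their separate values are uncertain.

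Among the genes of acetate use, none of 23 passed the test. Their median log2 fold was 0.04 (0.02 without WT_abx_and_acetate 4), with 15 positive and 8 negative. Acss1, the mitochondrial acetyl-CoA synthetase, stood at 4.37, 4.60, 4.51 and 4.59 log2 CPM in WT_abx_and_acetate, against 4.72 to 4.92 (median 4.79) in WT_control. The groups did not overlap, but the log2 fold of -0.27 ± 0.09 had an adjusted p of 0.152. Acss2, its cytosolic and nuclear counterpart, had 5.58 to 5.95 log2 CPM in WT_abx_and_acetate and 5.50 to 5.99 in WT_control (log2 fold -0.09 ± 0.10), and Acly, which makes acetyl-CoA from citrate, had 7.39 to 7.67 log2 CPM in WT_abx_and_acetate and 7.47 to 7.64 in WT_control (log2 fold -0.04 ± 0.06). The members with the smallest p besides Acss1 were Crat, carnitine acetyltransferase, at -0.19 ± 0.06 (adjusted p = 0.12), and Acat2, which joins acetyl-CoA units, at 0.26 ± 0.09 (adjusted p = 0.152). Shank1, Shank2 and Shank3 had log2 folds of -0.01 ± 0.13, -0.23 ± 0.12 and -0.20 ± 0.17, with overlap in each.

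The enzymes that place and remove histone marks gave 0 calls in 3 lists. Of 19 histone acetyltransferases, 11 had positive folds (median 0.01), and Kat6b, which acetylates histone H3, came nearest to the threshold. It stood at 6.22, 6.29, 6.20 and 6.23 log2 CPM in WT_abx_and_acetate, against 5.88 to 6.02 (median 5.98) in WT_control, a log2 fold of 0.27 ± 0.07 with no overlap and an adjusted p of 0.0577. The nuclear receptor coactivators Ncoa2 and Ncoa1 had 0.12 ± 0.05 and 0.11 ± 0.05 (0.06 and 0.05 without WT_abx_and_acetate 4). Of 18 deacetylases 14 had negative folds (median -0.07), led by Hdac5, a class IIa enzyme that shuttles with neuronal activity, at 7.46, 7.61, 7.51 and 7.58 log2 CPM in WT_abx_and_acetate and 7.73 to 7.94 (median 7.88) in WT_control. No library overlapped, and the log2 fold of -0.30 ± 0.09 had an adjusted p of 0.102. The sirtuins Sirt4 and Sirt3 had -0.29 ± 0.18 and -0.10 ± 0.07. Of 37 histone methylation enzymes 18 had positive folds (median 0.00), with Kdm6b, a demethylase of histone H3, at -0.72 ± 0.20, Kmt2a at -0.33 ± 0.10 and Dot1l at -0.54 ± 0.16 (adjusted p 0.0703 to 0.0909). The median of the deacetylase list was -0.13 in the male and 0.04 in the female libraries alone, and -0.03 without WT_control 2. That of the acetyltransferases turned to -0.01 when scaled by plain library size or without WT_abx_and_acetate 4, and was 0.14 in the female libraries alone. That of the methylation enzymes ran from -0.04 to 0.02 when single libraries were left out.

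Genes induced by neuronal activity had mostly negative folds, and the medians were larger in size in the females alone than in the males alone. Immediate early genes are switched on within minutes of synaptic activity, and effector genes follow them. Of 29 immediate early genes 26 had negative folds (median -0.58) and 0 passed. At an unadjusted p below 0.05 in limma 13 were negative and 1 positive, where 7.32% of all genes were lower and 7.04% higher. Of 26 effector genes 24 had negative folds (median -0.48) and 1, Per2, passed, where 0.383% of all genes passed as lower. Without WT_abx_and_acetate 4 the median of the immediate early genes was -0.38, and that of the effector genes -0.20 with 19 negative. The fold of Per2 instead grew in size without that library, from -1.12 to -1.52. Over the immediate early genes, the mean deviation from the series average was -0.04, 0.07, 0.22 and -0.40 log2 CPM in WT_abx_and_acetate 1 to 4, against 0.26, 0.33 and 0.17 in the male and 0.70, 0.89 and 0.76 in the female WT_control libraries. The female controls were the highest of the 10 and the female WT_abx_and_acetate 4 the lowest. In the male libraries alone the medians of the 2 lists were -0.13 and -0.05, and in the female libraries alone, with 1 WT_abx_and_acetate library, they were -1.17 and -0.88.

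Fosl2, a member of the Fos family of transcription factors, stood at 5.10, 5.22, 5.05 and 5.38 log2 CPM in WT_abx_and_acetate, against 5.72 to 6.60 (median 6.15) in WT_control. The groups did not overlap, but the log2 fold of -0.95 ± 0.24 had an adjusted p of 0.0569. Fosb, another Fos family gene, had -1.08 ± 0.32 and Klf4, a Krüppel-like factor, -1.06 ± 0.31, also without overlap (adjusted p = 0.0906 and 0.0862). Arc, the activity-regulated cytoskeletal gene, and Fos itself had -0.95 ± 0.52 and -0.62 ± 0.47 with overlap. Homer1, a scaffold of the postsynaptic density with an activity-induced short form, stood at 7.35, 7.20, 7.23 and 7.36 log2 CPM in WT_abx_and_acetate and 7.44 to 8.79 (median 8.49) in WT_control, a log2 fold of -0.89 ± 0.23 (adjusted p = 0.0577).

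Per2, a negative arm gene of the circadian clock that is also induced by activity (chromosome 1, 91415982 to 91459324, minus strand), divided the treated group. It stood at 4.09, 4.65 and 4.55 log2 CPM in the male WT_abx_and_acetate libraries and 6.04 in the female, against 5.72 to 6.19 (median 6.09) in WT_control. The 3 males lay more than 1 below every control and the female within the control range; the log2 fold was -1.12 ± 0.24 (adjusted p = 0.0288). Its partner Per1 stood at 6.25, 6.78, 6.42 and 6.85 log2 CPM in WT_abx_and_acetate and 6.96 to 7.45 (median 7.35) in WT_control, a log2 fold of -0.68 ± 0.18 with no overlap and an adjusted p of 0.0579. Cry2, a further repressor of the clock, had -0.16 ± 0.08. Over 21 clock genes 14 folds were negative (median -0.09), and Per2 alone passed, where 0.383% of all genes passed as lower. The median of the list was -0.23 in the male and 0.33 in the female libraries alone, and -0.17 without WT_abx_and_acetate 4. The labels give no hour of collection.

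Of 21 genes that respond to glucocorticoids 18 had negative folds (median -0.15) and 0 passed, with Per1 leading and Cdkn1a, a cell cycle inhibitor, at -0.85 ± 0.30 and Pdk4 at -0.30 ± 0.14. That median turned to 0.05 in the female libraries alone, and was -0.26 without WT_abx_and_acetate 4 and -0.09 with RNA integrity added. The fold of Cdkn1a was -0.52 without WT_abx_and_acetate 4.

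Genes of the ER stress response leaned low, and 1 of 25 passed. Cells raise these chaperones and folding enzymes when unfolded protein gathers in the ER. Of the 25, 20 had negative folds (median -0.23) and 14 were negative with an unadjusted p below 0.05 in limma. Over all genes 7.32% were lower at that p, and 0.383% passed as lower. Creld2, an ER-resident protein with disulfide isomerase activity (chromosome 15, 88819646 to 88826683), stood at 3.18, 3.35, 3.50 and 3.53 log2 CPM in WT_abx_and_acetate, against 3.81 to 4.58 (median 4.13) in WT_control. The groups did not overlap, and it fell by 0.74 on the log2 scale (SE 0.16, adjusted p = 0.0288). Hspa5, the main ER chaperone BiP, stood at 7.50, 7.49, 7.39 and 7.51 log2 CPM in WT_abx_and_acetate and 7.64 to 8.48 (median 8.32) in WT_control, with a log2 fold of -0.65 ± 0.18 (adjusted p = 0.0659). Xbp1, a transcription factor of the response, had 6.07 to 6.27 log2 CPM in WT_abx_and_acetate and 6.30 to 6.81 in WT_control (log2 fold -0.43 ± 0.11, adjusted p = 0.0577). Chaperone and folding genes spread widely among the controls, whose mean deviations over the list were 0.31, -0.10 and -0.05 log2 CPM in males and 0.23, 0.25 and 0.22 in females, against -0.11, -0.15, -0.12 and -0.07 in WT_abx_and_acetate. The list had a median of -0.12 in the male libraries alone and -0.31 in the female libraries alone.

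The promoters of Creld2 and Hspa5 are shown because each holds the ER stress element, through which the response is known to switch such genes on. It was searched on both strands as CCAAT and CCACG with 9 bases between them, and its outer blocks are in capitals; it overlaps neither a cAMP response element (TGACGTCA) nor an E-box (CACGTG), of which these 2 windows hold none. Both windows run 5′ to 3′ on the gene's strand from 250 bases before to 50 after the start (RefSeq, GRCm38.p6): chr15:88819396-88819695 and chr2:34771840-34772139, both on the plus strand. Creld2 carries the element on the opposite strand, so that its blocks read as CGTGG and ATTGG.
Creld2: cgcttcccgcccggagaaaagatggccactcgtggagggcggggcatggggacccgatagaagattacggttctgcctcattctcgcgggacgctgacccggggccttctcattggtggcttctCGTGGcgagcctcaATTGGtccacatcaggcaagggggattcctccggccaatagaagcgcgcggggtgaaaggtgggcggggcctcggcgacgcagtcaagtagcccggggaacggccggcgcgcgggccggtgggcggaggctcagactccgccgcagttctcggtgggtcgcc
Hspa5: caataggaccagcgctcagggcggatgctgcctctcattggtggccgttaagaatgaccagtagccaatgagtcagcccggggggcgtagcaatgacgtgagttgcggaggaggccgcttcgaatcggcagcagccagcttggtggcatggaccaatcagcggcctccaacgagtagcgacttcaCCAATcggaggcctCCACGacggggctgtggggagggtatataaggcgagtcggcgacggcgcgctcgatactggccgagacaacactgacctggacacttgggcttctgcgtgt

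The element stood in 18 of 14188 such windows of measured genes (0.127%), and in 1 of 108 windows of called genes, that of Creld2. These 108 windows do not match the 108 called genes 1 to 1, since no window was found for Per2. The 18 genes that hold the element had 14 negative and 4 positive folds (median -0.23). They are a set chosen after the values were seen and partly the same as the ER stress list. Beside Creld2 and Hspa5 they include Pdia6, a protein disulfide isomerase, at -0.48 ± 0.15, and Derl3, of ER-associated degradation, at -0.68 ± 0.27. Calr, calreticulin, had -0.30 ± 0.13, and Pdia6, Derl3 and Calr did not pass. The 4 positive folds ran from 0.03 ± 0.06 for Canx, an ER chaperone, to 0.07 ± 0.07 for Hnrnpa3. The cAMP response element stood in 2.78% of the windows of called genes and 2.91% of all windows, and the E-box in 12% of those of called genes and 9.36% of all.

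Cytosolic heat shock chaperones also had mostly negative folds, 23 of 25 (median -0.14), with 0 past the threshold. Hspb1, a small heat shock protein, stood at 1.85, 1.86, 2.18 and 1.96 log2 CPM in WT_abx_and_acetate and 2.42 to 3.72 (median 3.06) in WT_control, a log2 fold of -1.07 ± 0.28 (adjusted p = 0.0577) without overlap. Dnajb5 had -0.63 ± 0.17 and Dnajb1 -0.46 ± 0.13, with adjusted p = 0.0577 and 0.0683. In the male libraries alone the median of this list was 0.00, and in the female libraries alone -0.38.

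**Figure D3:**
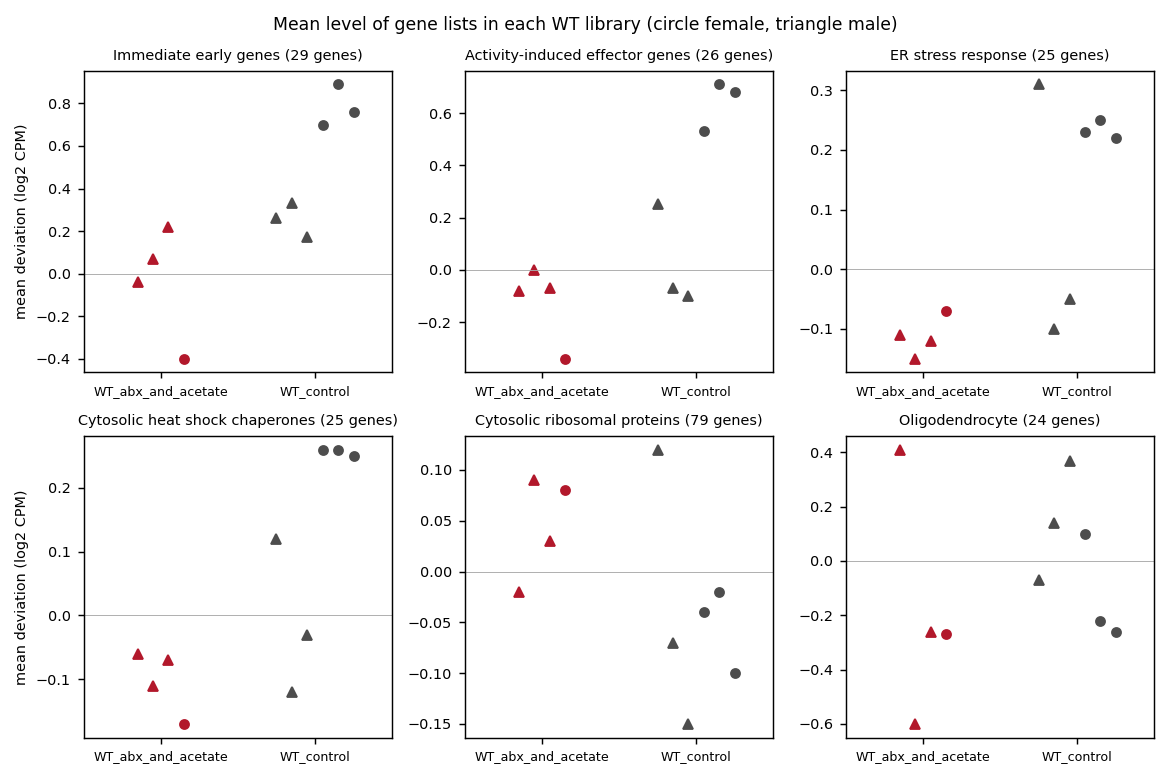
Mean deviation of 6 gene lists from the average of all 35 libraries (y axis, log2 CPM) in each WT_abx_and_acetate library (left, red) and each WT_control library (right, grey), with circles for females and triangles for males. The female controls are high for the immediate early, effector, ER stress and heat shock lists, the WT_abx_and_acetate libraries are close together for the ER stress list, and the oligodendrocyte list ranges widely in both groups.

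The splicing factors included 2 genes that passed, both lower, where 0.383% of all genes passed as lower. Of 54 spliceosome and splicing genes 38 had negative folds (median -0.08). Tra2a, which binds exonic enhancers, stood at 5.73, 5.80, 5.82 and 6.38 log2 CPM in WT_abx_and_acetate, against 6.24 to 6.61 (median 6.42) in WT_control. The female library lay among the controls, the males below them all, and the log2 fold was -0.47 ± 0.10 (adjusted p = 0.031). Srsf7, an SR protein, stood at 6.02, 6.06, 6.05 and 6.26 log2 CPM in WT_abx_and_acetate and 6.34 to 6.41 (median 6.37) in WT_control, a log2 fold of -0.28 ± 0.07 (adjusted p = 0.039). Prpf38b had -0.32 ± 0.09 (adjusted p = 0.0779). In the female libraries alone the median of the list was 0.03, and without WT_control 2 it was -0.05.

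Genes of protein synthesis and respiration had small positive folds, with 0 past the threshold. Of 79 cytosolic ribosomal protein genes 74 were positive (median 0.10), among them Rps15a at 0.16 ± 0.06 and Fau at 0.24 ± 0.09. At an unadjusted p below 0.05 in limma 11 of the 79 were higher, against 7.04% of all genes. Near-identical pseudogene copies of ribosomal protein genes may share reads with them. Of 77 nuclear genes of oxidative phosphorylation 68 were positive (median 0.07), with Ndufa4 at 0.17 ± 0.07, Atp5o at 0.13 ± 0.06 and Ndufa9 at 0.12 ± 0.06. The mean deviation over the ribosomal list was -0.02, 0.09, 0.03 and 0.08 log2 CPM in WT_abx_and_acetate, against -0.15 to 0.12 in WT_control, so that the groups overlapped. Of 36 genes of presynaptic release 28 were positive (median 0.09), with Rims2 at 0.19 ± 0.08, Vamp2 at 0.12 ± 0.07 and Rab3a at 0.12 ± 0.07, and none passed. In the female libraries alone the median of the oxidative phosphorylation list was 0.02 (42 positive and 35 negative) and that of the presynaptic list 0.00 (18 positive and 18 negative); without WT_control 2 the presynaptic median was 0.05. Without WT_abx_and_acetate 4 the fold of Rps15a was 0.10 and that of Rims2 0.10.

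Of 24 genes of cholesterol synthesis 16 had negative folds (median -0.04) and 0 passed. Dhcr7 had -0.15 ± 0.07 without overlap and Stard4 0.17 ± 0.09. The median of the list was 0.03 in the female libraries alone, 0.00 without WT_control 1 and -0.02 without WT_abx_and_acetate 3 or 4.

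Immune genes were low in level and leaned negative, with 0 calls in both lists. Of 24 innate receptors and mediators of inflammation 22 had negative folds (median -0.14), led by Nfkb2, a subunit of NF-kappaB, at -0.69 ± 0.19 (adjusted p = 0.0744), Il6ra, the interleukin 6 receptor, at -0.41 ± 0.14, and Icam1, an adhesion molecule, at -0.90 ± 0.31. Icam1 stood at 0.96, 1.32, 1.44 and -0.97 log2 CPM in WT_abx_and_acetate, against 1.13 to 1.96 in WT_control, and Nfkb2 at 1.66, 1.39, 1.70 and 0.62 log2 CPM in WT_abx_and_acetate, against 1.70 to 2.31 in WT_control. Both were lowest in WT_abx_and_acetate 4, without which the log2 fold of Icam1 was -0.32 ± 0.26 and that of Nfkb2 -0.44 ± 0.19. The median of the list was -0.18 in the male and -0.28 in the female libraries alone. Of 27 interferon-stimulated genes 21 had negative folds (median -0.20), with Irf9, a factor of interferon signalling, at -0.45 ± 0.14, Usp18 at -0.84 ± 0.34 and Ifi35 at -0.53 ± 0.22; the median was -0.10 without WT_control 1, -0.12 without WT_control 4 and -0.12 in the female libraries alone. Of 17 genes of tight junctions and barriers 13 had negative folds (median -0.17, 0 called), with Jam2 at -0.21 ± 0.08, Cav1 at -0.36 ± 0.16 and Cldn12 at 0.15 ± 0.05 (0.10 without WT_abx_and_acetate 4); the median was -0.11 in the female libraries alone.

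Markers of glia had mostly negative folds and the 10 of excitatory neurons mostly positive ones, with 0 calls in any list. Negative folds were not particular to glia. They made up 13 of 17 inhibitory neuron markers (median -0.05) and 16 of 22 endothelial ones (median -0.10). The same held for 11 of 16 pericyte and smooth muscle markers (median -0.08) and 14 of 20 of meningeal fibroblasts (median -0.11). Of layer markers, 6 of 12 were positive in upper layers (median 0.02) and 12 of 17 in deep layers (median 0.14). In bulk tissue, fewer cells of a type and less RNA per cell cannot be told apart. All 24 oligodendrocyte markers were negative (median -0.25; summed level 1970 to 4230 CPM in WT_abx_and_acetate and 2660 to 4080 CPM in WT_control), with Sox10, a lineage factor, at -0.35 ± 0.23, Cryab at -0.31 ± 0.25 and Ugt8a, a myelin lipid enzyme, at -0.38 ± 0.35; the groups overlapped in each. That median rested on single libraries: it was -0.43 without WT_abx_and_acetate 1, -0.07 without WT_abx_and_acetate 2 (20 of the 24 negative), -0.16 with RNA integrity added and -0.10 in the female libraries alone. Of 20 astrocyte markers 17 were negative (median -0.15; summed level 5390 to 7290 CPM in WT_abx_and_acetate and 6200 to 7020 CPM in WT_control), with Ntsr2 at -0.30 ± 0.13, Hapln1 at -0.27 ± 0.14 and Gfap at -0.46 ± 0.25, and the median was 0.04 in the female libraries alone and -0.09 without WT_abx_and_acetate 1. Of 23 microglial markers 16 were negative (median -0.11; summed level 467 to 653 CPM in WT_abx_and_acetate and 569 to 670 CPM in WT_control). Their median was -0.02 in the male libraries alone (10 positive, 13 negative) and -0.39 in the female libraries alone (2 positive, 21 negative), where WT_abx_and_acetate has 1 library. It was -0.06 without WT_abx_and_acetate 4, -0.17 without WT_abx_and_acetate 2 and -0.07 without WT_control 4. Tmem119, a marker of resident microglia, stood at 4.16, 4.43, 4.29 and 4.24 log2 CPM in WT_abx_and_acetate, against 4.51 to 4.86 (median 4.75) in WT_control. It did not overlap, and its log2 fold of -0.42 ± 0.11 had an adjusted p of 0.0577; Selplg had -0.37 ± 0.11 and C1qb -0.32 ± 0.12 (-0.20 without WT_abx_and_acetate 4). Of 10 excitatory neuron markers 9 were positive (median 0.11; summed level 6490 to 7840 CPM in WT_abx_and_acetate and 6270 to 7730 CPM in WT_control), with Neurod2 at 0.26 ± 0.10, Emx1 at 0.34 ± 0.14 and Tbr1 at 0.22 ± 0.11; the median was 0.17 without WT_abx_and_acetate 4 and 0.04 in the female libraries alone. The part of these markers in the called genes was not tested. Ttr, the leading choroid plexus gene, was at 4.38 log2 CPM in WT_abx_and_acetate 4, at -3.31 to -2.07 in the other WT_abx_and_acetate libraries and at -2.78 to 1.79 in WT_control.

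The called genes were then read in the other groups. WT mice given antibiotics alone or acetate alone share the WT_control libraries with this comparison, so only their own values are given. The median log2 fold over the 51 genes that rose was 0.36 with the combination, 0.19 with antibiotics and 0.20 with acetate, and over the 57 that fell -0.48, -0.32 and -0.34. The genes were chosen because they passed with the combination, and that choice itself favours larger medians there. Without the 5 libraries that go against their labels, which leaves 2 in each single-agent group, the medians with antibiotics were 0.16 and -0.25 and with acetate 0.23 and -0.38. Antibiotics alone gave 0 calls against control (smallest adjusted p 0.156 in limma, 1345 genes at an unadjusted p below 0.05), and acetate alone gave 1 (0.00672%), Exosc1 (1399 genes unadjusted), none without those 5 libraries. Set directly against antibiotics alone, the combination gave 0 calls (910 genes unadjusted, smallest adjusted p 0.23 in limma for Aldh4a1). Against acetate alone it gave 0 calls (592 genes unadjusted). Without those 5 libraries the unadjusted counts were 526 and 631. Chance would put about 744 genes below an unadjusted p of 0.05 in each comparison. The departure from the sum of the 2 single effects also gave 0 calls (715 genes unadjusted). A p-value that misses the threshold does not show that the groups are alike.

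Tipin illustrates genes for which the 3 treated WT groups lay together. Its level was 3.24 ± 0.17 log2 CPM with the combination, 3.24 ± 0.09 with antibiotics and 3.15 ± 0.10 with acetate, against 2.68 ± 0.18 in WT_control (SD, n = 4, 4, 5 and 6), while the means of the KO groups reached at most 3.10. P4ha1 was lowest with the combination, at 5.21 ± 0.07 log2 CPM, with 5.57 ± 0.21 under antibiotics, 5.54 ± 0.27 under acetate and 6.0 ± 0.27 in WT_control, and the KO groups lay between 5.39 and 5.68. Htr1a was at 4.49 ± 0.23 log2 CPM with the combination, 4.01 ± 0.14 with antibiotics, 4.24 ± 0.23 with acetate and 3.87 ± 0.18 in WT_control. The single-agent means include the 5 libraries that go against their labels. Without them the log2 fold of P4ha1 over WT_control went from -0.43 to -0.18 with antibiotics and from -0.42 to -0.51 with acetate. That of Htr1a went from 0.14 to 0.02 and from 0.37 to 0.41, and that of Tipin from 0.56 to 0.63 and from 0.48 to 0.45. Over the called genes, the WT_control mean lay outside the range of the 7 other group means in 95 of 108 (88.0%), against 25.2% of all genes; the genes were chosen with WT_control in the contrast.

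**Figure D4:**
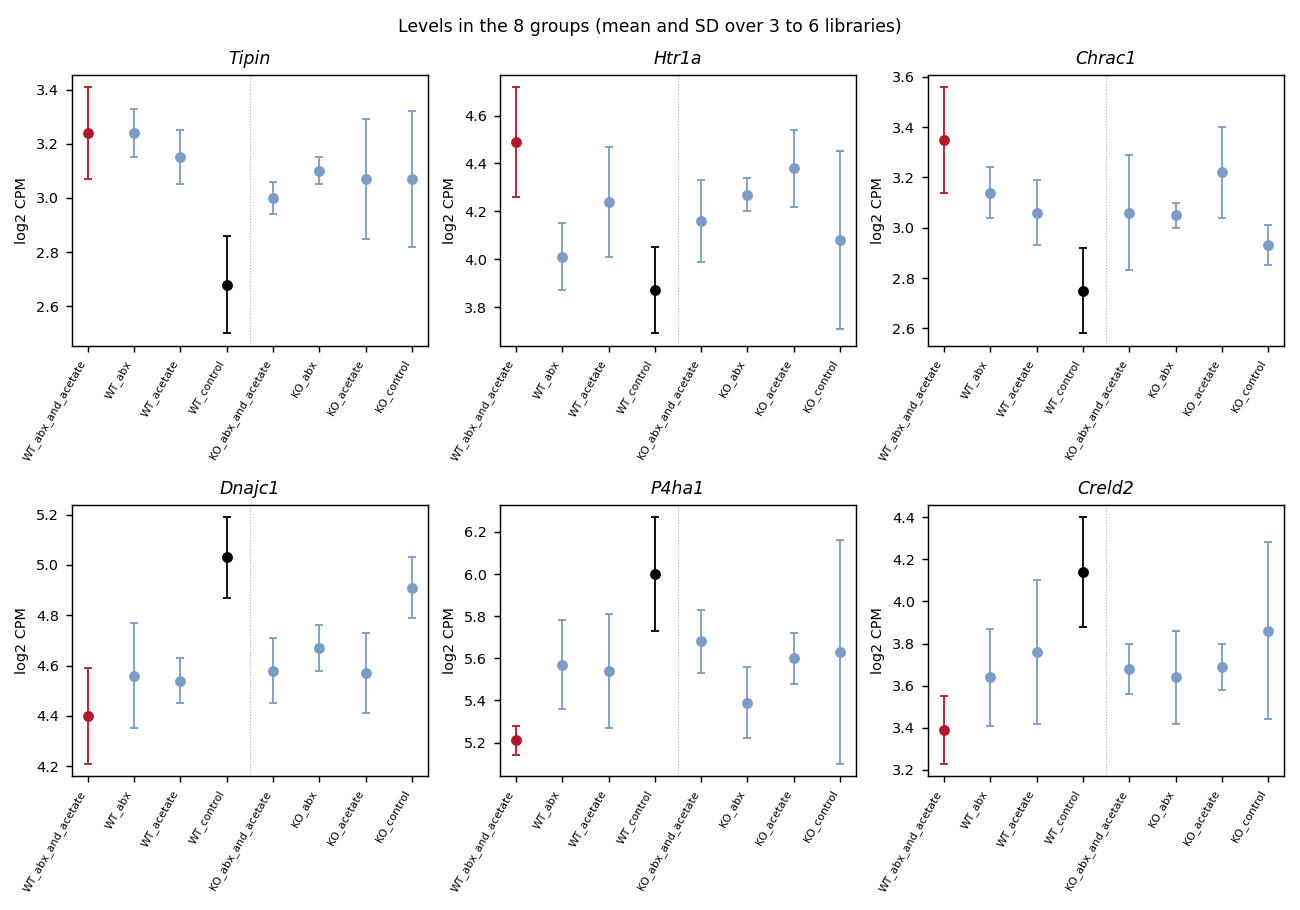
Mean and SD (log2 CPM) of 3 genes that rose (top) and 3 that fell (bottom) in the 8 groups, with WT_abx_and_acetate in red, WT_control in black and the others in blue, over 3 to 6 libraries a group. The WT_control mean is the lowest of the 8 for Tipin, Htr1a and Chrac1 and the highest for Dnajc1, P4ha1 and Creld2. The WT_abx and WT_acetate groups include the 5 libraries that go against their labels.

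In KO mice, whose comparison shares no library with the WT one, the same treatment gave 0 calls (1104 genes at an unadjusted p below 0.05, smallest adjusted p 0.283 for Fdps). Of the 108 genes called in WT, 90 had the same sign in KO (83.3%, against 63.3% of all genes), 40 of the 51 that rose and 50 of the 57 that fell. Of the 108, 22 also had an unadjusted p below 0.05 in KO with the same sign (20.4%, against 5.83% of all genes). The median KO log2 fold was 0.09 over the genes that rose in WT and -0.17 over those that fell, and it was smaller than the WT fold in each of the 108, which were chosen for their size in WT. Dnajc1 stood at 4.58 ± 0.13 log2 CPM in KO_abx_and_acetate and 4.91 ± 0.12 in KO_control (SD, n = 4 each), a log2 fold of -0.34 ± 0.10. Plekhg4 had a KO log2 fold of -1.22 ± 0.38. By contrast Tipin had -0.08 ± 0.12, P4ha1 0.02 ± 0.17 and Per2 0.09 ± 0.27 in KO. The KO minus WT difference itself gave 0 calls over all genes (674 at an unadjusted p below 0.05, smallest adjusted p 0.455 in limma for Polr3b). Chance would put about 744 genes below an unadjusted p of 0.05.

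**Figure D5:**
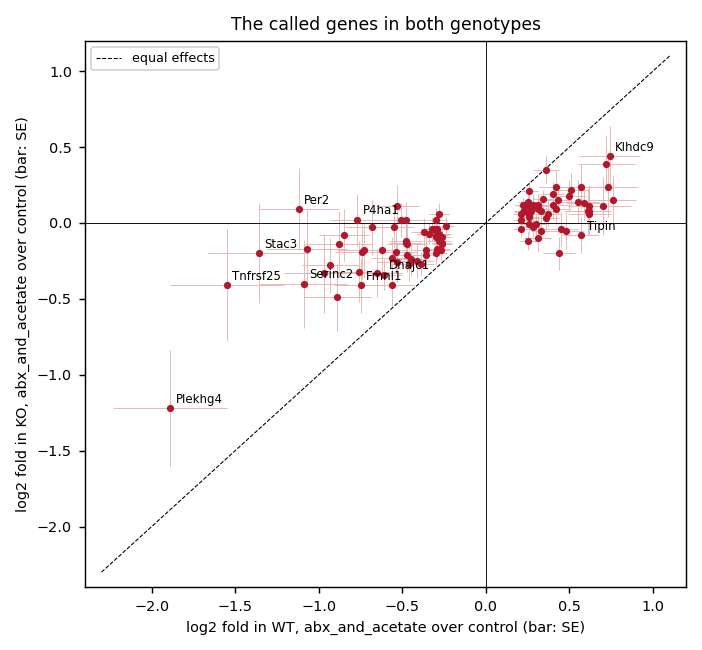
Log2 fold of antibiotics with acetate over control in WT (x axis) and in KO (y axis) for the 108 genes called in WT, with bars for the SE and a dashed line where both are equal. Most points lie on the same side of 0 in both genotypes, and all lie nearer to 0 in KO than in WT.

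Some lists had medians of unlike sign in the genotypes. The immediate early genes had a median log2 fold of -0.58 in WT and 0.14 in KO, where 20 of 29 were positive, and the cholesterol genes -0.04 in WT and 0.25 in KO, where 22 of 24 were positive. In WT the immediate early median was -0.13 in males alone and -1.17 in females alone, with 1 WT_abx_and_acetate library. KO_abx_and_acetate holds 3 females and 1 male, and KO_control 2 of each sex. The KO medians were not split by sex or read without single libraries. The ER stress list had -0.23 in WT and -0.22 in KO, where 3 of 25 were positive, and the ribosomal list 0.10 and 0.11. Within the lists no gene passed the test of the difference between genotypes.

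The sexes were set apart in a further reading, since the groups hold them in unequal numbers. In 106 of the 108 genes the female WT_abx_and_acetate 4 lay beyond all 3 female controls in the called direction (98.1%, against 51.6% of all genes), and in 101 the 3 male WT_abx_and_acetate libraries lay beyond all 3 male controls (93.5%, against 22.3%). These libraries entered the test that chose the genes. The male libraries alone gave 13 calls, of which 8 were among the 108, and the female libraries alone, with 1 WT_abx_and_acetate library, gave 454, of which 24 were. All 108 kept their sign in both.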

How the data were processed

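RNA was sequenced from bulk mPFC punches, with column extraction and strand-marking paired-end libraries per the labels' protocols. The authors deposited log2 CPM values that have voom's form (an offset of 0.5 read, scaled to an effective library size); turned back, 100% of them were whole reads within 0.01, and these gave the depths. Of tools, the submitters' processing notes list limma alone and give it no version; an aligner, a counting tool, a genome build and a filter on low genes were not given in the sources used here. Depth limits low genes: 851 had a mean below 0 log2 CPM, and 0 of them was called.

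Genes were tested with limma 3.58.1 (R 4.3.3) on the deposited values, all 35 libraries in 1 fit of 8 group means and labelled sex, trended prior, 2-sided, Benjamini-Hochberg over 14870 genes, threshold 0.05. Log2 folds are given with the SE of that fit. The code was tested on simulated data. Alternatives changed the samples, covariates, prior, weights, scaling, offset and filter, left out each library in turn, and, added after seeing the data, took the female libraries alone. Named are the 12 genes with the largest fold in each direction among those that passed with a mean of at least 0 log2 CPM, the 3 members of each list with the smallest p, and Shank1, Shank2, Shank3, Acss1, Acss2 and Acly; other names were chosen after their values were seen, and some genes of the rule are not reported here. Members and lists were chosen with earlier results of these data known, and 24 of the 47 lists computed are described in full. Some 23 rows repeat another row and 23 symbols had become dates, none of them called. Of the deposited symbols 97.0% matched GENCODE vM21 (GRCm38), used for positions only.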

Additional observations from a re-analysis of the deposited data

Results flagged for a closer look

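Each named gene was looked at for a single library far from the rest of its group, and 14 of 190 such readings stood out, where chance gives about 1 in 20. Of the 14, 7 were of WT_abx_and_acetate 4, the shallowest library and the only female of its group. It stood high for Cys1 (3.11 log2 CPM, the others 2.10 to 2.27), Tra2a (6.38, the others 5.73 to 5.82), Srsf7 (6.26, the others 6.02 to 6.06), Ncoa1 (7.24, the others 7.07 to 7.09) and Kmt2a (7.85, the others 7.32 to 7.38). It stood low for Rbm11 (2.70 log2 CPM, the others 3.04 to 3.10) and Cdkn1a (3.95, the others 4.85 to 5.03).

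Other WT_abx_and_acetate libraries stood apart in 3 genes. Library 1 was low for Plekhg4 at -2.06 log2 CPM, the others being at -0.42 to -0.10. Library 2 was low for Zc3h6 at 4.04, the others at 4.27 to 4.31, and library 3 was high for Gfap at 6.41, the others at 6.23 to 6.26.

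Among the WT_control libraries 4 readings stood out. Zbed5 was low in WT_control 4 (2.01 log2 CPM, the others 2.27 to 2.42), Mreg was high in WT_control 3 (2.14, the others 1.42 to 1.69), Acss2 was low in WT_control 1 (5.50, the others 5.85 to 5.99) and Ndufa4 was low in WT_control 2 (6.38, the others 6.60 to 6.73). The part of sex and depth in these readings was not tested.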

How the results depend on the processing

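The count of 108 genes (51 higher, 57 lower) fell to 45 (15 higher, 30 lower, 18 shared with the 108) with only the compared groups in the fit, to 45 (35 shared) with WT libraries only, to 56 (54 shared) with RNA integrity added, and to 13 in males; it was 163 with no sex term and 454 in females. Leaving out single libraries gave 0 to 203. Centring on the median gave 102 calls (59 higher, 43 lower) and plain library size 124 (37 higher, 87 lower), with median folds over all genes of 0.02 and -0.02; the remaining alternatives gave 75 to 118. All 108, chosen in a fit that held the same libraries, kept their direction in every alternative. Of them 0 passed in all 10 leave-one-out fits. The causes were not tested.

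The direct comparison with WT_abx gave 1 call, Cbx3-ps7, with only the compared groups in the fit, and leave-one-out gave 0 to 1 (Aldh4a1). The difference between genotypes gave 1 call, Gm14288, in males. All other alternatives of the 4 further comparisons gave 0.

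Of the values of named genes, 1953 kept direction and side of the threshold, 48 passed it, 263 no longer did and 16 reversed, all of genes that had not passed. Shank1 turned to 0.01 with RNA integrity added, 0.00 when centred on the median, 0.04 in females, and ranged from -0.07 to 0.02 without single libraries. Acly turned to 0.04 in males and ranged from -0.09 to 0.00 without single libraries, and Cdkn1a to 0.01 in males. In females alone Acss2 turned to 0.07, Atp5o to -0.02, Sirt4 to 0.17, Sirt3 to 0.11 and Kmt2a to 0.00. Leaving out a single library moved the fold of 0 of the 29 named genes that passed, and of 17 of the 66 that did not, by over 1.5 times, 13 of them without WT_abx_and_acetate 4. No paired analysis was possible because the labels tie no WT_abx_and_acetate library to a WT_control library. Group WT_abx_and_acetate has 4 libraries and 1 female, so an effect of sex within it rests on 1 library.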
